A study of Homo sapiens with 3 samples.

Results

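Nuclear receptor coregulators were followed in MDA-MB-231, a basal breast cancer line of human origin usually described as lacking estrogen receptor alpha, across 3 cultures treated for 3 h. One culture received vehicle (0.1% ethanol), one estradiol at 1 µM and one tamoxifen at 1 µM, each after 4 h in RPMI 1640 medium with 10% charcoal-stripped serum, which lowers the steroids of the serum itself. The 9 genes considered were the p160 coactivators NCOA1, NCOA2 and NCOA3, the Mediator subunit MED1, the coactivator PELP1, the PGC-1 coactivators PPARGC1A and PPARGC1B, and the corepressors NCOR1 and NRIP1. Probe sets were taken where the platform annotation gave exactly 1 symbol and that symbol was one of the 9. This gave 21 of the 54675 probe sets, for 7 of the 9 genes. NCOA3 and NCOR1 had no such probe set in the table and are not analysed here.

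Nuclear receptors switch genes on and off through proteins that do not bind DNA themselves. An agonist such as estradiol closes the receptor's ligand pocket and exposes a groove that holds the LXXLL motifs of coactivators, which bring histone acetyltransferases and the Mediator complex to the gene. An antagonist such as tamoxifen blocks that groove in the estrogen receptor and favours corepressors, which bring histone deacetylases. The amounts of these proteins are known to set how much a cell responds to either ligand, and some of their own genes are regulated within hours.

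By the labels each group held 1 array, so no value below has a replicate spread and no test was run. The values are log2 numbers relative to an unstated baseline and not levels; higher was taken to mean more RNA, which the labels do not state. Comparisons are differences between arrays for the same probe set. A brightness floor was set from how finely each deposited number is stepped in binary, and 13 of the 21 probe sets were above it: 4 of 4 for MED1, 3 of 4 for NCOA1, 2 of 2 for NRIP1, 1 of 1 for PELP1, 1 of 4 for NCOA2, 1 of 2 for PPARGC1A and 1 of 4 for PPARGC1B. Over all probe sets with 1 symbol, 20810 of 41097 were above it. A difference of 1.5-fold (0.585 on the log2 scale) is used to call a probe set, and a smaller one is said to lie inside the rule. Disagreement between probe sets was measured in 3199 genes with exactly 2 probe sets above the floor. The differences of the 2 probe sets lay a median of 0.25 apart for estradiol minus vehicle, 0.25 for tamoxifen minus vehicle and 0.21 for tamoxifen minus estradiol. The 90th percentiles were 0.68, 0.67 and 0.57. Both probe sets are read on the same arrays, so these gaps do not measure the spread between arrays or cultures. The size rule is therefore of the order of a large disagreement between probe sets of 1 gene.

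The vehicle column was narrower than the other columns (SD over all probe sets 0.20, against 0.47 for estradiol and 0.46 for tamoxifen) and lay on binary steps 1 place finer. The labels do not give the reason. Doubling each vehicle value was tried as an alternative scale, which the narrower column and finer steps do not require. Whether it is the right scale was not tested, so a call made only on it is not a finding. The differences it gives are printed where a call changed and for some genes where none did. Other list genes that passed only with the vehicle doubled are named too, chosen after their values were seen. Bacterial poly-A control RNAs, which are added before labelling, had medians over 27 probe sets of 0.99 for estradiol minus vehicle and 0.84 for tamoxifen minus vehicle, and their part in the differences below was not tested. Between tamoxifen and estradiol they differed by -0.16. All 10 markers of this mesenchymal line, among them VIM, CD44 and AXL, were above the floor, as were 4 of 8 luminal markers (ESR1, through 1 of its 9 probe sets, GATA3, KRT19 and EPCAM), while PGR, FOXA1, TFF1 and ERBB3 were below it. Of 6 leukocyte markers PTPRC alone was above the floor, and of 8 fibroblast and endothelial markers ACTA2, PECAM1, VWF and KDR were, with PDGFRB, DCN, LUM and CDH5 below. The leukocyte, fibroblast and endothelial markers were listed as ones that should be absent. A place above the floor therefore does not by itself show that a gene is expressed.

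**Figure D1:**
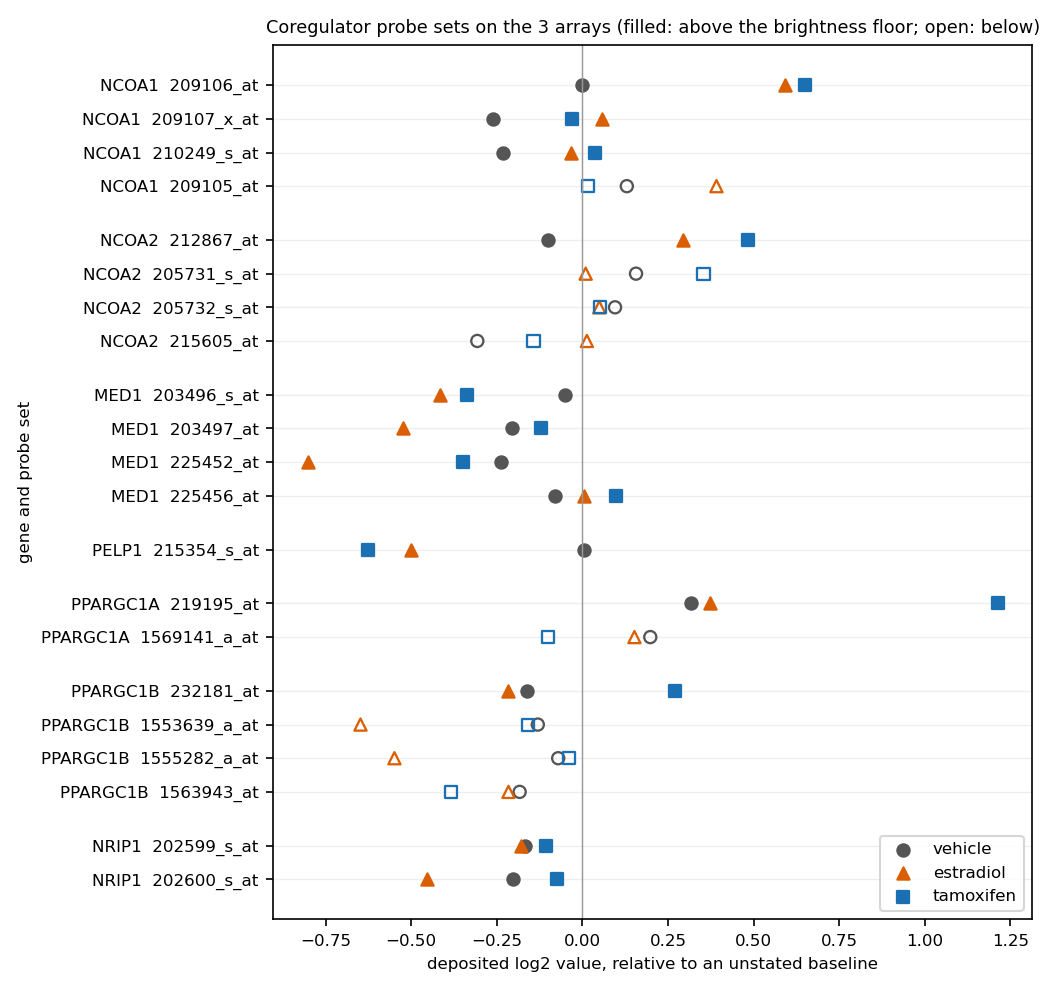
Deposited log2 values of the 21 coregulator probe sets (rows, grouped by gene) on the vehicle, estradiol and tamoxifen arrays, relative to an unstated baseline, with filled symbols above the brightness floor and open symbols below it. PPARGC1A probe set 219195_at stands at 1.21 on the tamoxifen array against 0.32 and 0.37 on the others, and PELP1 lies at about 0.00 with vehicle and at -0.50 and -0.63 with the ligands.

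The PGC-1 coactivator gene PPARGC1A showed the largest spread of the 7 genes over the 3 arrays, and it stood apart on the tamoxifen array. PPARGC1A encodes PGC-1 alpha, an inducible coactivator of PPARs, estrogen-related receptors and other receptors that drives mitochondrial biogenesis, fatty acid oxidation and, in liver, gluconeogenesis, and whose gene is a classical target of cyclic AMP and CREB. Its probe set 219195_at had values of 0.32 with vehicle, 0.37 with estradiol and 1.21 with tamoxifen. It lay in the band just above the floor (4 to 8), as did the markers PTPRC, ACTA2, PECAM1, VWF and KDR. Whether the cells express PPARGC1A was therefore not settled by its place above the floor. The vehicle and estradiol arrays were close together and the tamoxifen array was high. The value with tamoxifen was 1.86-fold that with vehicle (difference 0.89) and 1.79-fold that with estradiol (0.84), while estradiol differed from vehicle by 0.05.

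Among the 20810 probe sets above the floor, the PPARGC1A difference between tamoxifen and estradiol lay at percentile 99.6 and that between tamoxifen and vehicle at percentile 97.7. With the vehicle value doubled the difference from vehicle was 0.576, just short of the size rule. The comparison with estradiol does not use the vehicle values. The other PPARGC1A probe set, 1569141_a_at, was in the dimmest band and went the opposite way, with 0.20, 0.15 and -0.10 for vehicle, estradiol and tamoxifen. Averaged over both probe sets the tamoxifen array was 0.30 above vehicle and 0.29 above estradiol, so the call rests on 1 probe set.

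Its relative PPARGC1B, which encodes PGC-1 beta, a coactivator with overlapping mitochondrial targets that is less inducible by cyclic AMP, had 1 probe set above the floor, 232181_at. Its values were -0.16 with vehicle, -0.22 with estradiol and 0.27 with tamoxifen. The order of the arrays was close to that of PPARGC1A, with tamoxifen high, and the differences were smaller: 0.43 from vehicle and 0.49 from estradiol, both within the size rule. With the vehicle value doubled the first of these was 0.60, past the rule. Below the floor, 1553639_a_at and 1555282_a_at also stood higher with tamoxifen than with estradiol, by 0.49 and 0.51. In both the estradiol array alone was low (-0.65 and -0.55), with -0.13 and -0.07 on the vehicle array and -0.16 and -0.04 on the tamoxifen array. The fourth probe set, 1563943_at, was lowest with tamoxifen (-0.18, -0.22 and -0.38). Thus 3 of the 4 PPARGC1B probe sets were higher with tamoxifen than with estradiol. Of these 3, the brightest was 0.43 above vehicle, inside the rule. The others, below the floor, differed from vehicle by -0.03 and 0.03.

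**Figure D2:**
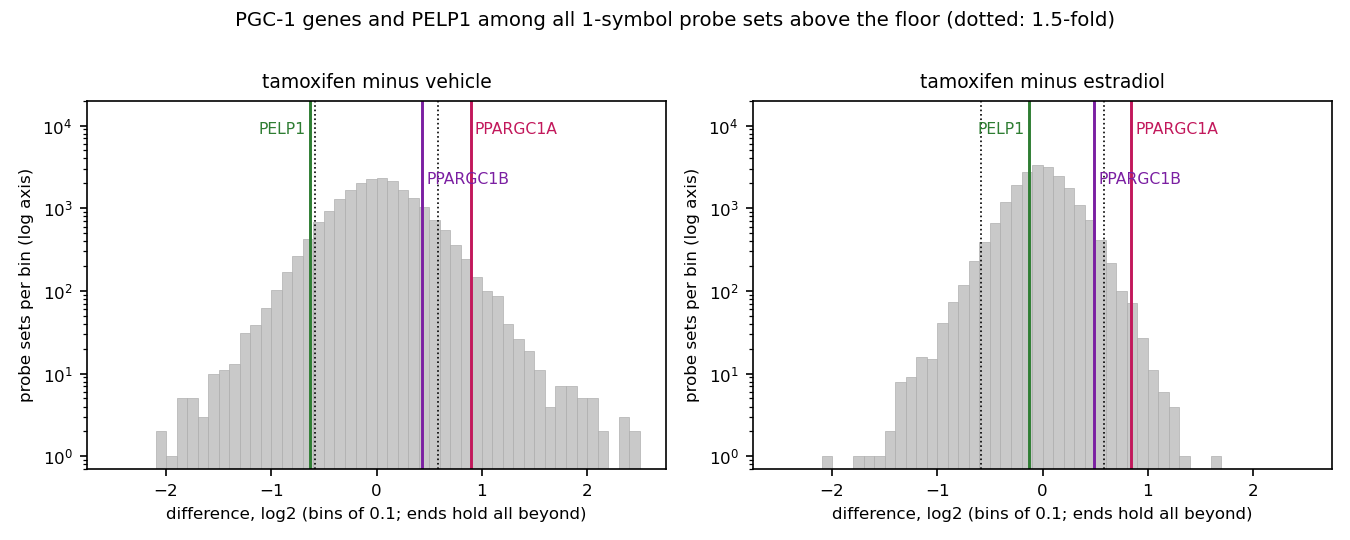
Numbers of 1-symbol probe sets above the floor (log axis) by their difference in log2 for tamoxifen minus vehicle and tamoxifen minus estradiol, in bins of 0.1, with the PPARGC1A, PPARGC1B and PELP1 probe sets above the floor marked by lines and 1.5-fold by dotted lines. PPARGC1A lies past the dotted line in both panels (0.89 and 0.84), PPARGC1B inside it in both (0.43 and 0.49), and PELP1 past it on the low side only against vehicle (-0.63 and -0.13).

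The promoter windows of these PGC-1 genes and of PELP1 are shown because PPARGC1A had the widest spread over the arrays, PPARGC1B had a similar order of arrays, and PELP1 was the member lower than vehicle past the size rule. The 3 windows of NCOA1, which was higher with both ligands, held none of the motifs searched and are not shown. Each is the 250 bases before an annotated start, on the gene's strand, from RefSeq on GRCh38.p14. Windows were found for 8 of the 9 genes, 14 in all. Capitals mark exact matches to the core of the cyclic AMP response element, TGACG, on either strand (CGTCA on the other). The windows, in order, are chr4:24472906-24473155 (minus strand), chr4:23881102-23881351 (minus), chr5:149771690-149771939 (plus) and chr17:4704138-4704387 (minus).
PPARGC1A, upstream start: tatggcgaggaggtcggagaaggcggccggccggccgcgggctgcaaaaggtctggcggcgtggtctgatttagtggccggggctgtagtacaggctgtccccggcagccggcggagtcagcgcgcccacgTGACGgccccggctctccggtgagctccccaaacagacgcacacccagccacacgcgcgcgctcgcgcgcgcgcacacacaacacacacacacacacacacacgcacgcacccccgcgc
PPARGC1A, downstream start: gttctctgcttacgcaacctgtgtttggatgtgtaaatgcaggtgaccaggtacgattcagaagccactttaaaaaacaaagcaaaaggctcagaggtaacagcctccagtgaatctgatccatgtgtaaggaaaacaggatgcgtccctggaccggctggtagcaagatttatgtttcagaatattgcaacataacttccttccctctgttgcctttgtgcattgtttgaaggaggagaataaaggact
PPARGC1B: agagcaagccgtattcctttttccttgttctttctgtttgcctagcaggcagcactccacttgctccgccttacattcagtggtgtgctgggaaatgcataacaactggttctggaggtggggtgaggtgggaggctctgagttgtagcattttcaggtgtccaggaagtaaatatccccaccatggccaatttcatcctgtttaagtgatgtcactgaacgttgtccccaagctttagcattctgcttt
PELP1: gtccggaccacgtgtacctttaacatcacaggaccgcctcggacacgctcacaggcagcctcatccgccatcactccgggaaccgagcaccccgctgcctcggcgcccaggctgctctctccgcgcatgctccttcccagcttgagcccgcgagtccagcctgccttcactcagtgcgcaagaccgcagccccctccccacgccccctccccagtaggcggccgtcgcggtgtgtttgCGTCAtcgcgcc

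This core was present in the upstream PPARGC1A window, 119 bases before the start, in the PELP1 window, 12 bases before the start, and in 1 of 3 NRIP1 windows, where it occurred 2 times. These were 3 of the 14 windows, and the core was found in 21.2% of all 35116 windows of that length. The full element TGACGTCA, which contains the core on both strands, was in none of the 14 and in 1.65% of all windows. Neither the estrogen response element, allowing any 3 bases between its arms, nor its single arm AGGTCA was in any of the 14, against 0.0256% and 12.1% of all windows. A match is a description of the letters only. The downstream PPARGC1A window and the PPARGC1B window did not hold the core. Which start the cells used cannot be read from these arrays.

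The coactivator gene PELP1, a scaffold that links estrogen receptor to SRC and PI3K signalling and also serves in ribosome maturation, was lower with both ligands than with vehicle. Its only probe set, 215354_s_at, had values of 0.00 with vehicle, -0.50 with estradiol and -0.63 with tamoxifen. Both ligand arrays were low and lay close together. Tamoxifen was 1.55-fold below vehicle (-0.63), past the size rule, and estradiol 1.42-fold below (-0.50), inside it; the ligands differed from each other by -0.13. These values hardly move when the vehicle value is doubled, since that value is near 0. For PELP1 as for all members, both differences from vehicle share the vehicle array, so their likeness is not independent. The 4 genes of its ribosome maturation complex, LAS1L, TEX10, SENP3 and WDR18, were also below vehicle with both ligands, with medians of -0.28 and -0.19. With estradiol 1 of the 4 passed the rule, WDR18 (-0.94, from its 1 probe set), where 8.49% of all genes passed. With the vehicle doubled these medians were -0.05 and 0.09 and none of the 4 passed.

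The p160 coactivators were higher with both ligands than with vehicle in their brightest probe sets. These proteins bind agonist-bound receptors directly and carry in acetyltransferases such as p300. For NCOA1 (SRC-1), probe set 209106_at had values of -0.0002 with vehicle, 0.59 with estradiol and 0.65 with tamoxifen, so that both ligand arrays were high and close together. The differences from vehicle were 0.59 and 0.65, or 1.51-fold and 1.57-fold, just past the size rule, and were the same with the vehicle doubled. The band of this probe set was read from only 2 of the 3 columns. The next probe sets, 209107_x_at and 210249_s_at, were also higher with both ligands, inside the rule: the first by 0.32 and 0.23, the second by 0.20 and 0.27. The dim 209105_at was higher with estradiol (0.26) and not with tamoxifen (-0.11). All 4 NCOA1 probe sets were thus above vehicle with estradiol, and 3 of 4 with tamoxifen, with 1 of 4 past 1.5-fold in each case; averaged over the 4 the differences were 0.34 and 0.26.

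NCOA2 (TIF2, also called GRIP1) gave a like order in its bright probe set 212867_at, with -0.10 on the vehicle array, 0.29 on the estradiol array and 0.48 on the tamoxifen array. It was 0.39 above vehicle with estradiol and 0.583 above with tamoxifen, the latter the member just short of the rule; with the vehicle doubled it was 0.68. NCOA1 with estradiol, at 0.59, was the member just past it. The 3 dim NCOA2 probe sets did not share the order: 205731_s_at differed from vehicle by -0.15 and 0.20, 205732_s_at by -0.05 and -0.04, and 215605_at by 0.32 and 0.16. Between tamoxifen and estradiol, the 3 NCOA1 probe sets above the floor differed by -0.09 to 0.07 and that of NCOA2 by 0.19, less than the median gap between probe sets of 1 gene.

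MED1 was lower with estradiol than on either other array in 3 of its 4 probe sets. MED1 is the Mediator subunit whose LXXLL motifs hold the complex to ligand-bound receptors. Its brightest probe set, 225452_at, had values of -0.24 with vehicle, -0.80 with estradiol and -0.35 with tamoxifen. The estradiol array was low, by -0.56 from vehicle and with tamoxifen 0.45 above it, both inside the size rule. The differences between estradiol and vehicle were -0.32 for 203497_at and -0.36 for 203496_s_at, while 225456_at differed by 0.08, so the 4 probe sets spanned 0.65. Tamoxifen lay above estradiol by 0.40 for 203497_at but by only 0.08 for 203496_s_at. The latter is less than the median gap of 0.21 between probe sets of 1 gene. With tamoxifen the 4 differed from vehicle by -0.28 to 0.18, on both sides of 0. With the vehicle doubled 225452_at differed by -0.32 with estradiol.

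NRIP1, also known as RIP140, a ligand-dependent corepressor that binds agonist-bound receptors and is itself a direct estrogen target in receptor-positive breast cells, differed little. Probe set 202599_s_at had values of -0.17, -0.18 and -0.11 with vehicle, estradiol and tamoxifen, and 202600_s_at had -0.20, -0.45 and -0.07. The estradiol array was the lowest in both, by -0.01 and -0.25 from vehicle, and with tamoxifen NRIP1 was 0.06 and 0.13 above vehicle. None of these passed the rule. As the mean of both probe sets the gene differed from vehicle by -0.13 with estradiol and 0.09 with tamoxifen.

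**Figure D3:**
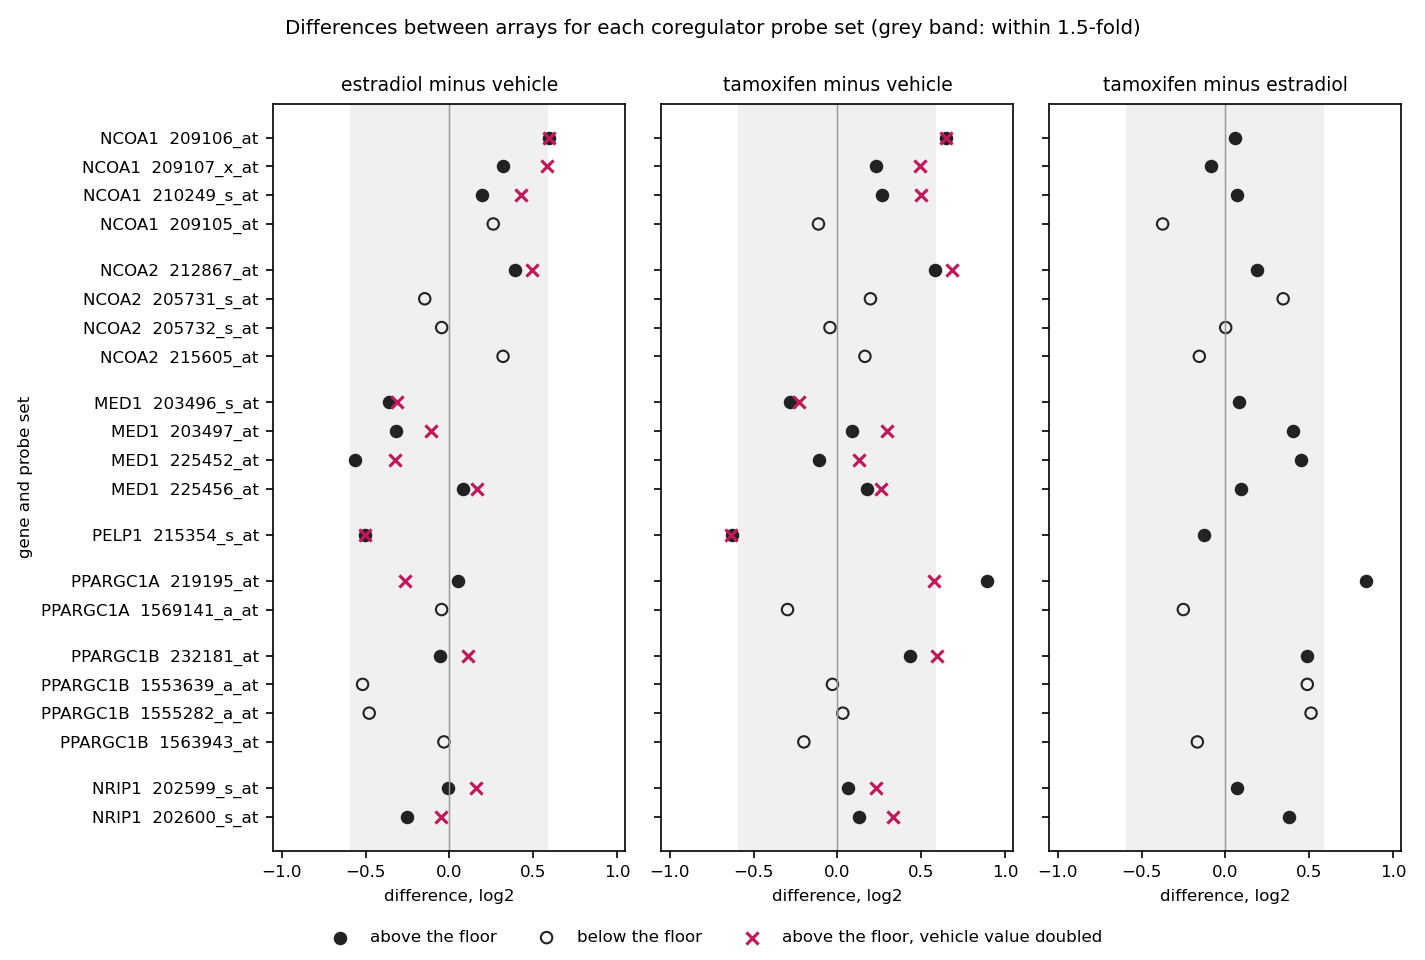
Differences in log2 for each of the 21 coregulator probe sets (rows) in the 3 comparisons, with filled circles above the brightness floor, open circles below it, crosses for the values with the vehicle doubled, and a grey band within 1.5-fold. Outside the band as deposited lie NCOA1 209106_at with both ligands (0.59 and 0.65), PELP1 with tamoxifen (-0.63), and PPARGC1A 219195_at with tamoxifen against vehicle and estradiol (0.89 and 0.84).

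Counted over the 13 member probe sets above the floor, 1 was past 1.5-fold higher with estradiol than with vehicle and 0 lower, where 11.6% of all probe sets above the floor passed (7.01% higher, 4.61% lower). With the vehicle doubled the same counts stood beside 4.94% and 3.44%. With tamoxifen 2 were higher than vehicle and 1 lower, where 14.1% of all passed (8.2% higher, 5.95% lower). With the vehicle doubled 4 passed, NCOA1, NCOA2 and PPARGC1B higher and PELP1 lower, beside 8.44% and 5.18% of all. Between tamoxifen and estradiol 1 was higher and 0 lower, where 5.04% of all passed (2.34% higher, 2.7% lower). With 13 probe sets these counts are not set apart from the background. None of the 21 member probe sets reached 2-fold in any of the 3 comparisons, where 1.98%, 2.4% and 0.37% of all those above the floor did.

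By gene, taking the mean over the probe sets in the brightest band of each, the median of the 7 members was -0.05 for estradiol minus vehicle, 0.43 for tamoxifen minus vehicle and 0.23 for tamoxifen minus estradiol. The medians over all 12067 genes above the floor were 0.02, 0.02 and -0.02. Of the 7 genes, 3 were above vehicle with estradiol and 5 with tamoxifen, and 6 were higher with tamoxifen than with estradiol, PELP1 being the exception. Over all genes 53.3%, 52.1% and 46.8% lay above 0. With 7 genes the counts were not tested against those shares. Averaging all probe sets of each gene brought the tamoxifen minus vehicle median to 0.09 and left the tamoxifen minus estradiol median at 0.23. It moved NCOA1 from 0.06 to -0.08 for tamoxifen minus estradiol, so the count of 6 depends on the probe sets used.

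Other coregulators and regulators of PGC-1, from lists of textbook partners, gave no call between the ligands. Of 83 such genes above the floor (of 89 listed, 86 of them in the table), 0 were past 1.5-fold between tamoxifen and estradiol, where 3.78% of all genes passed (1.57% higher, 2.2% lower), and their median was 0.05. Against vehicle 4 were higher and 2 lower with estradiol (8.49% of all genes passed, 5.83% higher and 2.65% lower), and 5 were higher and 2 lower with tamoxifen (11.3%, 6.97% higher and 4.33% lower). With the vehicle doubled 1 was higher and 0 lower with estradiol (4.39% and 1.92% of all genes), and 6 were higher and 0 lower with tamoxifen (7.14% and 3.64%). The PGC-1 regulators among the 83 include genes that are not coregulators. Such a gene, the transcription factor MEF2C, was the 1 higher with estradiol when doubled (0.64). MEF2C was also among those higher with each ligand as deposited (1.01 and 1.06).

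Among the histone-modifying and SWI/SNF coactivators, 1 gene of each list passed with tamoxifen and 0 with estradiol, beside the 11.3% and 8.49% of all genes given above. Of 11 histone-modifying coactivators above the floor, 1 passed, the histone demethylase KDM6A with tamoxifen (0.68, and 0.16 with the vehicle doubled). Averaged over all 4 of its probe sets KDM6A was inside the rule (0.46). PAXIP1, of a histone methyltransferase complex, was 0.43 above vehicle with tamoxifen and passed with the vehicle doubled (0.61). EP300, the acetyltransferase p300, differed from vehicle by -0.11 with estradiol and 0.29 with tamoxifen, and its relative CREBBP by 0.05 and 0.04. NCOA6, another LXXLL coactivator, was 0.43 above vehicle with estradiol and 0.50 with tamoxifen, both inside the rule (0.52 and, just past it, 0.59 with the vehicle doubled). Of 7 SWI/SNF subunits, which remodel nucleosomes, SMARCB1 passed with tamoxifen (-0.62, and -0.20 with the vehicle doubled). That value came from 1 of its 3 probe sets, and the mean of the 3 was inside the rule (-0.30). Of the 4 other NCOA-named coactivators 0 passed.

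Among 25 other Mediator subunits above the floor, MED23 (0.68), MED14 (0.62) and MED21 (0.61) passed upward with estradiol, none of which did with the vehicle doubled (0.55, 0.36 and 0.29). With tamoxifen MED14 (0.74) and the Mediator kinase gene CDK8 (0.71) passed upward and MED16 (-0.73) downward; CDK8 was at 0.74 with the vehicle doubled, and the others were inside the rule at 0.48 and -0.53, while the cyclin gene CCNC, at 0.48 as deposited, passed at 0.61. Of the 25, 3 were higher and 0 lower with estradiol, where 8.49% of all genes passed. With tamoxifen 2 were higher and 1 lower, where 11.3% passed. Averaged over all its probe sets, MED14 was inside the rule with estradiol (0.30) and tamoxifen (0.41). MED23 was also inside it with estradiol (0.46), while MED21 stayed past it (0.69). The list medians were 0.09 with estradiol and 0.14 with tamoxifen, and MED1 itself was at -0.56 and -0.11.

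On the corepressor side, 5 genes of the NCOR1 deacetylase complex lay above the floor. Of these 1 passed with estradiol, where 8.49% of all genes did: CORO2A (-0.69, and -0.23 with the vehicle doubled). Averaged over both its probe sets CORO2A was inside the rule (-0.28). Of 16 other corepressors above the floor, among them the deacetylases and SIN3 proteins, 0 passed in any comparison, with medians of -0.09, -0.01 and 0.06. Over all genes 8.49%, 11.3% and 3.78% passed. NRIP1 lay within the range of these genes in each comparison, -0.25 to 0.20 with estradiol and -0.52 to 0.30 with tamoxifen from vehicle.

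**Figure D4:**
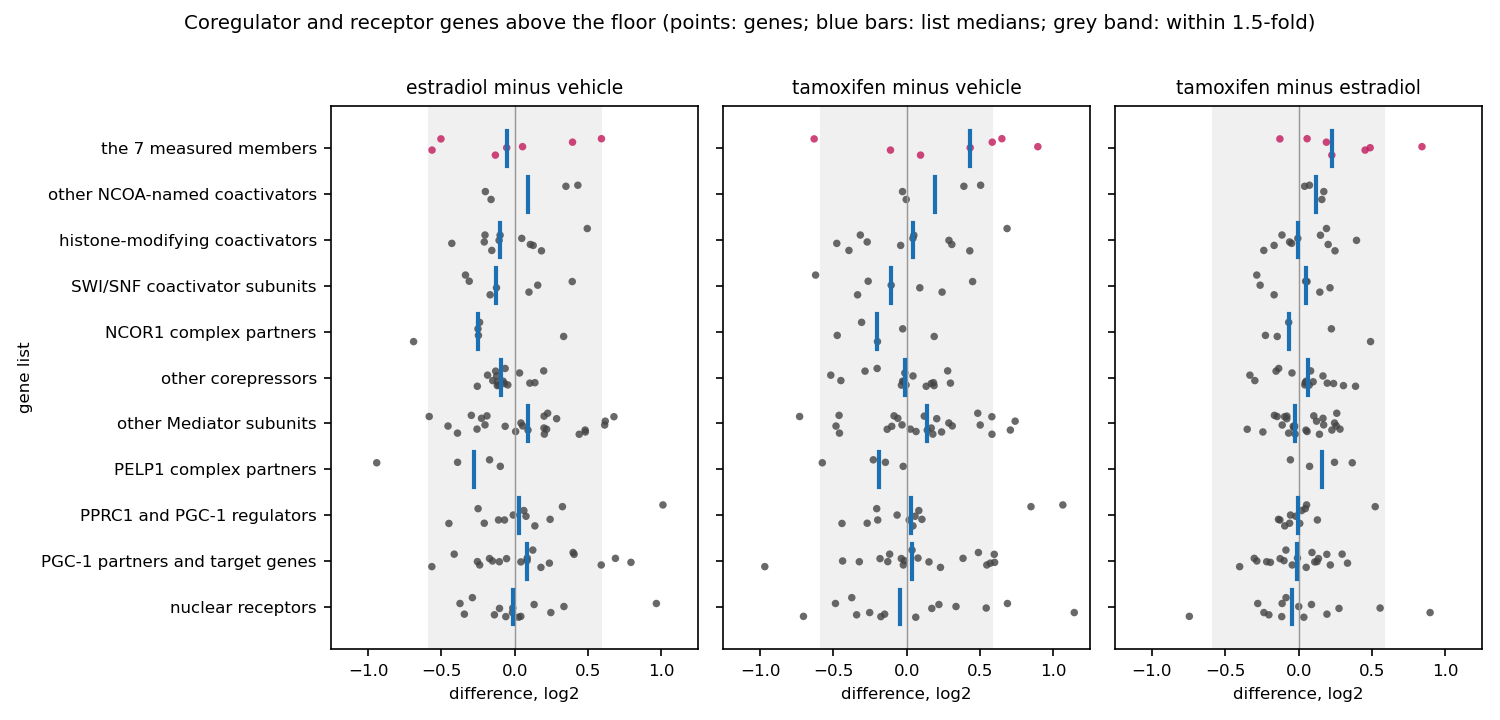
Differences in log2 of coregulator, PGC-1 regulator and target, and receptor genes above the floor (points, 1 per gene) by list (rows) in the 3 comparisons. Blue bars mark list medians and a grey band lies within 1.5-fold. The member median is at 0.43 for tamoxifen minus vehicle and 0.23 for tamoxifen minus estradiol, and PPARGC1A (0.84) lies furthest right of the members in the last panel.

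Genes with 3 values most like those of PPARGC1A, by Euclidean distance after centring each gene on its own mean over the 3 arrays, were METTL2B, EVI5, CELF4, ZNF250 and FPR1, at distances of 0.01 to 0.07. Their tamoxifen minus estradiol differences were 0.84, 0.79, 0.81, 0.77 and 0.76. For NRIP1 the nearest were PATZ1, STXBP6, MTARC1, KLHL17 and DGCR2, whose tamoxifen minus estradiol differences were 0.22 to 0.23. With 3 arrays such a likeness is a description only.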

How the data were processed

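RNA from 3 cultures was hybridised to Affymetrix HG-U133 Plus 2 arrays, per the labels' protocols. The authors deposited 1 table of log2 values for 54675 probe sets; robust multi-array averaging (RMA) is named in the submitters' processing notes, with no version. What baseline the deposited values were centred on is unknown; base 2 is assumed because RMA works in it. Column medians were -0.04 to -0.02. No label says whether a column averages several arrays. The number of arrays limits the precision.

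Levels being unknown, the planned level floor was replaced by bands: a single-precision level from 8 to 16, 4 to 8, 2 to 4 or below 2 keeps a different binary step, and the finest step among a probe set's columns, after shifting vehicle by 1 place, decided its band. A probe set can land 1 band too bright by chance. The floor was the lower edge of the 4 to 8 band. It kept 105 of 117 probe sets of ribosomal protein genes, 20 of 135 of olfactory receptor genes and 0 of 20 of bitter taste receptor genes. Probe sets with several symbols (1801) or not in the annotation table (11777) were left out. Gene values average the probe sets of the gene's brightest band only. No test was possible with 1 array per group. Promoter sequences and starts came from RefSeq (GRCh38.p14). Members and lists were chosen with earlier results of these data known. All members are named, and of other lists the genes past 1.5-fold (at most 4 per list and comparison) and the fixed genes (EP300, CREBBP, NCOA6, PPRC1, CREB1, ESRRA, ESR1 and NR3C1); 1 planned gene is not reported here. Alternatives were a doubled vehicle value, other floors, centring within bands, leaving out _x_at and _s_at probe sets, averaging all probe sets and a 2-fold rule. Analyses used Python 3.11.15, numpy 2.4.6 and pandas 2.3.3.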

Additional observations from a re-analysis of the deposited data

How the results depend on the processing

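No paired analysis was possible because each group held 1 array. The median over member genes for estradiol minus vehicle (-0.05) was 0.0529 with the vehicle doubled, 0.39 with a floor of 8, which left 3 genes, -0.0704 with centring within bands, 0.0535 without _x_at and _s_at probe sets, which left 5, and -0.13 with all probe sets averaged. For tamoxifen minus vehicle (0.43) it was 0.58, 0.58, 0.43, 0.58 and 0.0945 in the same order, and for tamoxifen minus estradiol (0.23), where doubling does not apply, 0.19, 0.24, 0.45 and 0.23. Dropping the floor left all 3 medians as they were. The numbers of member probe sets past 1.5-fold (1, 3 and 1) became 0, 0 and 0 under the 2-fold rule. With a floor of 8 they were 1, 1 and 0 of 3 probe sets. Centring within bands kept 1 for estradiol minus vehicle but exchanged NCOA1 (0.56) for MED1, on the low side. Over 25 settings of the gene values past 1.5-fold, 19 stayed past it the same way and 0 changed sign. Many of the 25 could not move the value, so the 19 are no measure of stability. Dropping the floor, a floor of 8 or leaving out _x_at and _s_at probe sets kept the same probe set in use wherever the gene remained. Averaging could not act on PELP1, which has 1 probe set. Doubling hardly acts on NCOA1 and PELP1, whose vehicle values are near 0. The 6 others were NCOA1 with estradiol when centred (0.56) or averaged (0.34), NCOA1 with tamoxifen when averaged (0.26), and PPARGC1A with tamoxifen against vehicle when doubled (0.576) or averaged (0.30) and against estradiol when averaged (0.29). The cause of these shifts was not tested. Brightness limits the 8 probe sets below the floor. Their differences are given as values, and they also enter the tallies of a gene's probe sets and the averages over all of them.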

Other observations

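Of 14 nuclear receptor genes above the floor (of 22 listed), 1 passed 1.5-fold with estradiol (8.49% of all genes passed), 3 with tamoxifen (11.3%) and 2 between tamoxifen and estradiol (3.78%). With 14 genes these counts are not set apart from those shares. NR2F1, the orphan receptor COUP-TFI, was 1.14 above vehicle and 0.90 above estradiol on the tamoxifen array (1.23 above vehicle with the vehicle doubled), and NR3C2, the mineralocorticoid receptor, was 0.97 above vehicle with estradiol and 0.69 with tamoxifen (0.41 and 0.13 with the vehicle doubled). NR2F1 and NR3C2 each rest on 1 probe set, in the 4 to 8 band just above the floor. RARB, a retinoic acid receptor gene, was 0.54 above vehicle with tamoxifen and passed with the vehicle doubled (0.66). ESR1 was -0.70 from vehicle and -0.75 from estradiol with tamoxifen in its 1 probe set above the floor, and 0.03 and 0.06 as the mean of its 9. The glucocorticoid receptor gene NR3C1 differed from vehicle by 0.13 and 0.22.

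Of 12 PGC-1 family and regulator genes above the floor, 1 passed with estradiol and 2 with tamoxifen, where 8.49% and 11.3% of all genes passed. With 12 genes these counts are not set apart from those shares. SIRT1, a deacetylase that activates PGC-1 alpha, was 0.33 above vehicle with estradiol and 0.85 with tamoxifen (0.92 with the vehicle doubled), in a single probe set, and 0.52 higher with tamoxifen than with estradiol. MEF2C, a transcription factor of the PPARGC1A promoter in muscle, was 1.01 and 1.06 above vehicle (0.64 and 0.69 with the vehicle doubled). CREB1 differed from vehicle by 0.14 and 0.04, and PPRC1, the third PGC-1 family gene, by -0.45 and -0.44. Of 19 partners and targets of PGC-1 above the floor, 3 passed with estradiol and 3 with tamoxifen, beside the same 8.49% and 11.3% of all genes. GABPA (0.79), ERRFI1 (0.69) and PPARG (0.59) passed upward with estradiol, none of them with the vehicle doubled. With tamoxifen GABPA (0.60) and IDH3A (0.60) passed upward (0.15 and 0.49 with the vehicle doubled), while PPARA (0.57) and TFB2M (0.49) passed with the vehicle doubled (0.69 and 0.59). UCP2 passed downward with tamoxifen (-0.97, and -1.02 with the vehicle doubled) and differed by -0.56 with estradiol, which became a call at -0.62 with the vehicle doubled. Averaged over all probe sets of each gene, IDH3A was inside the rule with tamoxifen (0.20). MEF2C (0.68) and UCP2 (-0.84) stayed past it with tamoxifen. Between tamoxifen and estradiol 0 of the 19 passed, where 3.78% of all genes did, and the median was -0.01. With 19 genes this count is not set apart from that share. ESRRA, the estrogen-related receptor that PGC-1 alpha coactivates, differed by -0.01 there.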
